A study of Homo sapiens with 26 samples.

Results

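Of 155652 FOXA1 peaks mapped in human fibroblasts, 19577 (12.6%) were also called for the FOXA1 variant that the labels name FOXA1nhaa and for none of the other 3 proteins compared. These nhaa-only sites covered 6.39 Mb. They were chosen by overlap of the deposited peak lists in hg19: a FOXA1 peak had to share at least 1 bp with a FOXA1nhaa peak and none with a FOXA1rraa, FOXA1dbd or HNF4A peak. The number of sites and their overlaps are therefore a description and not a finding. FOXA1nhaa peaks overlapped 39.7% of all FOXA1 peaks (61836), so most FOXA1 peaks that FOXA1nhaa kept were shared with a further protein.

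The measurement was chromatin immunoprecipitation with sequencing (ChIP-seq) in BJ fibroblasts, a cell line from human foreskin, after 48 h of ectopic expression of a protein carrying the HALO tag, with an antibody to the tag. The 5 groups were wild-type FOXA1, the FOXA1 variants FOXA1nhaa, FOXA1rraa and FOXA1dbd, and HNF4A, and all shared the cell line, the tag and the time. The labels list 2 ChIP libraries and 2 inputs for each, but 1 peak list per protein was used here, so there was no replicate error and no difference between proteins could be tested. Intervals are 95% intervals that cover only the counting error over peaks. The number of reads behind each list is unknown, and peak scores are the authors' own values.

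FOXA1 is a forkhead transcription factor that can bind its target DNA on nucleosomes and is therefore called a pioneer factor; in the liver it opens regulatory regions of hepatocyte genes. Its recognition helix reads the bases of the forkhead core in the major groove, while flanking loops called wings touch the DNA backbone. In earlier work on FOXA proteins the name NHAA denotes a variant in which an asparagine and a histidine of the recognition helix, which contact bases, are replaced by alanine, and RRAA one in which a pair of arginines that contact the backbone are replaced. The labels of these samples do not spell the variant names out, and they do not explain the name dbd. HNF4A is a nuclear receptor of liver cells that binds a different core.

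The letters searched as the forkhead core were TGTTTAC or TATTTAC, on both strands and without mismatch. To show what the nhaa-only sites look like, the FOXA1nhaa summit is printed with 50 bp to either side for those with the highest FOXA1nhaa −log10 q among 646 sites with a core within 25 bp of the summit. The strand is that of the GRCh37 reference, and capitals mark the core, which reads GTAAATA where it lies on the other strand.
near the ENSG00000271732 start, chr1:16943392-16943492 (+): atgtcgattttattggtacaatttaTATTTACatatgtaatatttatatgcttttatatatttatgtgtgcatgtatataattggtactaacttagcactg
CNOT6L intron, chr4:78648232-78648332 (+): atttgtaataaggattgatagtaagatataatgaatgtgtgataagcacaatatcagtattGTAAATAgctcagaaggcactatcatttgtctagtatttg
UBE2D1 intron, chr10:60111516-60111616 (+): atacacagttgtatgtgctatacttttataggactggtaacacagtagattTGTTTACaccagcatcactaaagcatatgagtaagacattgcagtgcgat
DENND1B intron, chr1:197484611-197484711 (+): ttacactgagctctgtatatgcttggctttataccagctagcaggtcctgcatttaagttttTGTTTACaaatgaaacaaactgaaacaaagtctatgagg
LINC03017 intron, chr7:84164105-84164205 (+): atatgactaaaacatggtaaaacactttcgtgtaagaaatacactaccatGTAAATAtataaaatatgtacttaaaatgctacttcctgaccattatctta
Not all of these cores lie inside the FOXA1 peak that they represent. The FOXA1nhaa summit in DENND1B was 671 bp from the midpoint of the FOXA1 peak, and the printed stretch lies wholly outside that peak. In CNOT6L the summit was 202 bp from the midpoint of a FOXA1 peak of 399 bp, and the core lies beyond the end of that peak.

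Most nhaa-only sites hold no such core, and neither do most FOXA1 peaks. One stood in the 200 bp around the midpoint of 13.6% of nhaa-only sites and 18.2% of all FOXA1 peaks. In 16052 of the nhaa-only sites none was found in the 200 bp around the FOXA1 midpoint or around the FOXA1nhaa summit. The 3 strongest of these by FOXA1nhaa −log10 q are printed for comparison, in lower case throughout because they hold neither TGTTTAC nor TATTTAC. The sequence between genes holds TATTTGC near its end, a related core that FOXA1 binds more weakly and that was not marked.
ENSG00000230492 intron, chr20:22999213-22999313 (+): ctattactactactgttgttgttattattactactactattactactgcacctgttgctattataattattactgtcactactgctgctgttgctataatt
MAP3K5 intron, chr6:136895472-136895572 (+): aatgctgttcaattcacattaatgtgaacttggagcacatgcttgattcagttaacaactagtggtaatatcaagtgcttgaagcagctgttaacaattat
between genes, chr12:93845436-93845536 (+): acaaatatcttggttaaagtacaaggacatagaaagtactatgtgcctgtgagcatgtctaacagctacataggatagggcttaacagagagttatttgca
The first is a run of repeated triplets that lies outside the FOXA1 peak it represents. Its summit was 256 bp from the FOXA1 midpoint. The other sequences show no such repeat, and their summits lay 3 bp and 5 bp from it. That these letters are absent says nothing about whether FOXA1 contacts the sites through other sequence.

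By the FOXA1 peak score, nhaa-only sites were of low to middle rank. Their median FOXA1 score was 114, with quartiles of 75 and 170 and a highest value of 713. All FOXA1 peaks had a median of 124, the 25760 sites overlapped by FOXA1nhaa and FOXA1rraa but not by FOXA1dbd or HNF4A had 179, and the 63949 sites in no other list had 98.0. Sites overlapped by FOXA1rraa alone (18096) had a median of 140. The widths followed the same order. Nhaa-only sites had a median width of 292 bp (quartiles 207 and 405 bp), compared with 425 bp for sites of FOXA1nhaa and FOXA1rraa and 239 bp for sites in no other list.

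**Figure D1:**
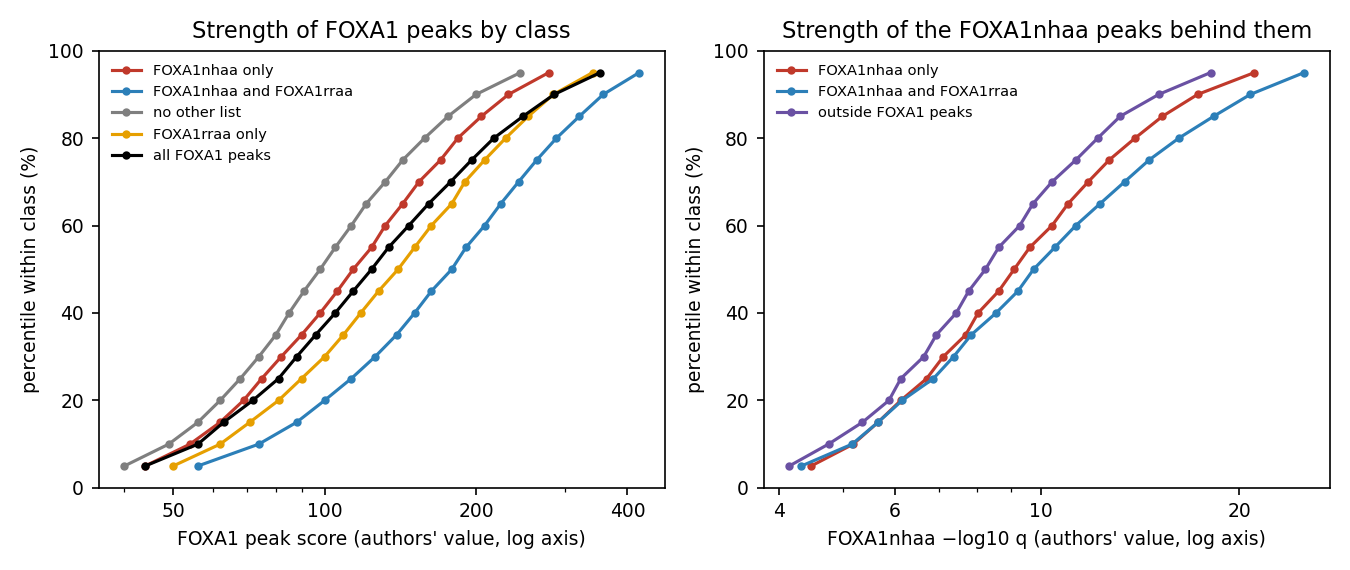
Percentiles of peak strength by class. Left, authors' FOXA1 score (log axis) of FOXA1 peaks. Right, authors' −log10 q (log axis) of the FOXA1nhaa peaks over nhaa-only sites, over sites of FOXA1nhaa and FOXA1rraa, and outside FOXA1 peaks. The group outside FOXA1 peaks leaves out FOXA1nhaa peaks that are in the FOXA1rraa list. Nhaa-only sites lie between sites in no other list and sites of FOXA1nhaa and FOXA1rraa at the median (98.0, 114 and 179).

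The share of nhaa-only sites changed little with FOXA1 strength except at the top. All FOXA1 peaks were divided by score into 5 bins of equal size. From the lowest to the highest bin, nhaa-only sites made up 13.8%, 14.1%, 14.1%, 13.1% and 7.76% of the peaks. Sites of FOXA1nhaa and FOXA1rraa rose over the same bins from 7.76% to 30.8%, and sites in no other list fell from 59.3% to 15.8%. The nhaa-only sites in the highest bin numbered 2415.

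The FOXA1nhaa peaks behind the sites were of average strength within their own list. There were 19231 of them, with a median fold enrichment of 5.73 (quartiles 4.85 and 6.94) and a median −log10 q of 9.11 (6.71 and 12.7). Their median percentile among all FOXA1nhaa peaks by −log10 q was 50.9. The 25749 FOXA1nhaa peaks over sites shared with FOXA1rraa had a median fold enrichment of 5.98 and a median percentile of 57.0. Those outside every FOXA1 peak and not in the FOXA1rraa list, 41294 in number, had 5.57 and 43.1. The values of FOXA1nhaa peaks over nhaa-only sites therefore fell between these groups. A single FOXA1nhaa peak overlapped 19391 of the sites and several overlapped 186.

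The FOXA1rraa list, which the choice of sites used, is not an independent set of calls. Of its 71202 peaks, 41253 are rows of the FOXA1nhaa list and 23216 are rows of the FOXA1 list. None of the remaining 6733 overlapped a FOXA1 peak. A site was therefore kept out by FOXA1rraa when its FOXA1nhaa or FOXA1 peak, or a neighbour reaching into it, stood in that list. How the authors made the list is not given in the sources used here. By the rule, no FOXA1nhaa peak over a nhaa-only site could be in it. Of the 25749 over sites of FOXA1nhaa and FOXA1rraa, 25449 were in it, which follows from how that class and the list were made up. The prefix of the peak name was the same for 98.7% of the FOXA1nhaa peaks over nhaa-only sites and for 90.6% of those over the shared sites.

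The rule requires the FOXA1nhaa and FOXA1 peaks to overlap, so their distance is given as a description. The FOXA1nhaa summit was a median of 77 bp from the FOXA1 midpoint (quartiles 34 and 155 bp), and within 100 bp at 59.7% of the sites. FOXA1nhaa peaks covered a median of 88.0% of the FOXA1 peak, and 36.1% of the sites lay wholly inside a FOXA1nhaa peak. The summit fell inside the FOXA1 peak at 74.3% of the nhaa-only sites and at 83.3% of the sites shared with FOXA1rraa, whose FOXA1 peaks are wider.

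At the edge of the rule, 175 sites shared only 1 to 10 bp with a FOXA1nhaa peak. Their median FOXA1 score was 87.0, and the 54 FOXA1 peaks in no other list with a FOXA1nhaa peak up to 10 bp away had 93.5. A FOXA1rraa peak up to 50 bp away was found for 16 nhaa-only sites (median score 144), a FOXA1dbd peak for 0 and an HNF4A peak for 40 (83.0). The FOXA1 peaks that missed the rule only by 1 to 50 bp shared with one of these lists numbered 550 for FOXA1rraa (median score 100), 95 for FOXA1dbd (86.0) and 54 for HNF4A (116). No peak of the 3 excluded lists lay within 500 bp of 17797 of the sites. The median distance to the nearest excluded peak was 5819 bp for FOXA1rraa, 16756 bp for FOXA1dbd and 28230 bp for HNF4A.

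Sequence was not used to choose the sites. The forkhead core was found within the 200 bp at the midpoint of 13.6% of nhaa-only sites (2666 sites, interval 13.1 to 14.1), compared with 18.2% of all FOXA1 peaks. In windows of the same length centred 1000 bp to either side the share was 8.43%, so the core was 1.62 times as frequent at the centre, compared with 2.17 times for all FOXA1 peaks. The letters of the core in reverse order, which are not a forkhead core, rose nearly as much at nhaa-only sites, as given below. The sites of FOXA1nhaa and FOXA1rraa held a core in 18.8%, and the nhaa-only sites were 5.13 points lower (difference −5.13, interval −5.81 to −4.45). Against sites in no other list, with 17.0%, the difference was −3.42 points (−3.98 to −2.86). Against sites of FOXA1rraa alone, with 22.1%, it was −8.48 points (−9.25 to −7.70).

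The same held against the classes that FOXA1dbd overlapped. Sites of FOXA1nhaa and FOXA1dbd (3006) held a core in 15.3%, a difference of −1.65 points (−3.06 to −0.32). Sites of all 3 variants (12117) held one in 20.7% and sites of FOXA1dbd alone (5802) in 22.3%, differences of −7.04 (−7.91 to −6.18) and −8.67 points (−9.85 to −7.51). The sites that FOXA1rraa and FOXA1dbd overlapped but FOXA1nhaa did not (4736) had the highest share, 26.9%, and the difference was −13.28 points (−14.65 to −11.95). Of the 8 classes of FOXA1 peak that HNF4A did not overlap, the nhaa-only sites therefore had the lowest forkhead share.

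Both spellings of the core were less frequent. TGTTTAC was found in 5.50% of nhaa-only sites and 7.76% of sites shared with FOXA1rraa, and TATTTAC in 8.64% and 11.9%. The related cores TGTTTGC or TATTTGC, which FOXA1 binds more weakly, were found in 12.2% of nhaa-only sites, 14.9% of the shared sites (difference −2.67 points, −3.30 to −2.04) and 14.0% of all FOXA1 peaks. Several forkhead cores stood in the window of 234 nhaa-only sites (1.20%) and of 477 shared sites (1.85%).

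As a check on base composition, the core was searched with its letters in reverse order, CATTTGT or CATTTAT, which have the same bases but are not a forkhead core. These stood in 19.6% of nhaa-only sites, 19.5% of sites shared with FOXA1rraa and 19.8% of all FOXA1 peaks. The difference from the shared sites was 0.11 points (−0.63 to 0.84). Against sites in no other list it was −0.82 points (−1.45 to −0.18) and against sites of FOXA1rraa alone −1.22 points (−2.04 to −0.41), smaller than the −3.42 and −8.48 points of the forkhead core. Against sites of FOXA1nhaa and FOXA1dbd, with 15.4%, it was 4.16 points (2.71 to 5.52), larger in size than the −1.65 points of the forkhead core. Base composition was thus not matched for that class, whose median GC content was 34.5%. The median GC content of the window was 33.0% at nhaa-only sites and 32.5% at shared sites, with 38.0% and 37.8% in the flanking windows. Within windows of under 30%, 30 to 35%, 35 to 40% and at least 40% GC, the forkhead share of nhaa-only sites differed from that of shared sites by −5.82, −5.36, −4.06 and −4.59 points, and each interval lay below 0.

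**Figure D2:**
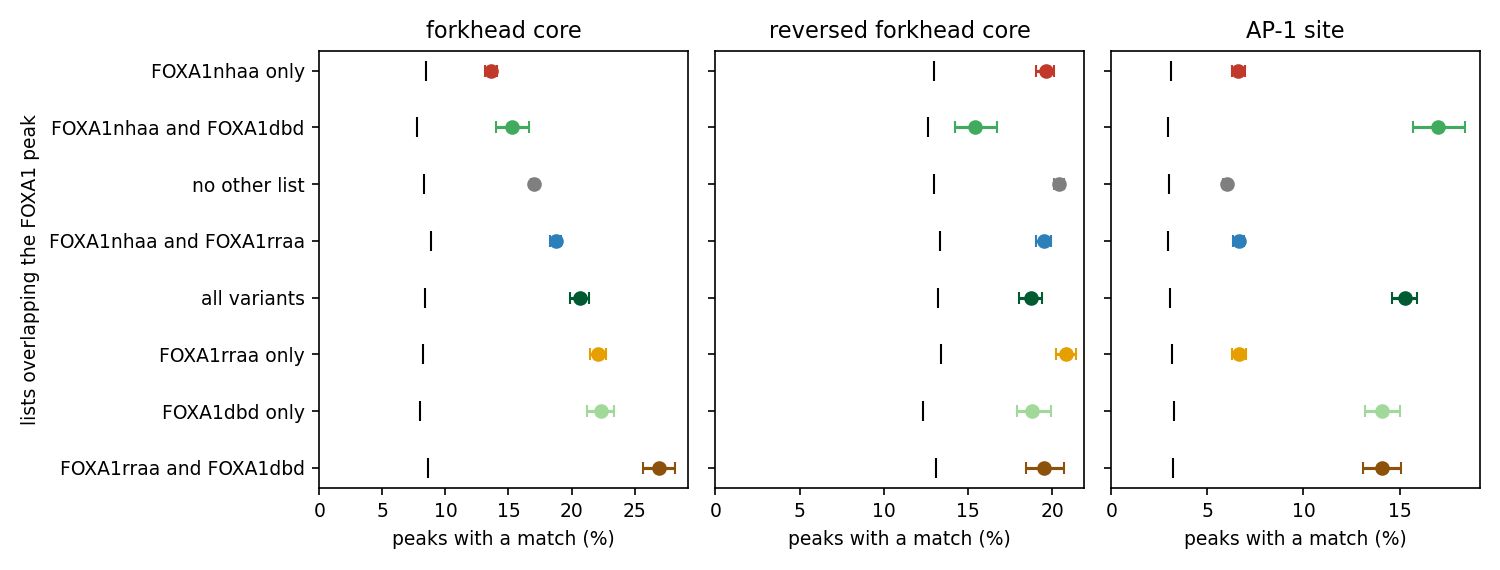
Share of FOXA1 peaks with a forkhead core, its reversed letters or an AP-1 site in the central 200 bp, by the lists overlapping the peak. Points with bars are shares with 95% Wilson intervals, and vertical ticks are the flanking windows. Nhaa-only sites have the lowest forkhead share (13.6%), and FOXA1rraa and FOXA1dbd sites the highest (26.9%). The reversed-core share of nhaa-only sites (19.6%) lies within the range of the other classes.

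The lower forkhead share was found at every level of FOXA1 score. From the lowest to the highest of the 5 bins, nhaa-only sites held a core in 13.1%, 13.8%, 14.0%, 13.9% and 13.1%, and sites shared with FOXA1rraa in 19.1%, 18.7%, 18.9%, 18.8% and 18.6%. The differences ranged from −6.01 to −4.84 points and each interval lay below 0. Sites in no other list held a core in 16.3% to 17.4% over the bins. The difference between nhaa-only and shared sites was thus of like size among peaks of like score and among all peaks.

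The same held for the strength of the FOXA1nhaa peak, with windows centred on its summit. Over 5 bins of FOXA1nhaa −log10 q from lowest to highest, the FOXA1nhaa peaks over nhaa-only sites held a core in 12.3%, 12.4%, 11.9%, 11.0% and 10.5%. Those over the shared sites held one in 16.9%, 16.8%, 16.3%, 16.1% and 17.5%. The difference was −4.60 points (−6.09 to −3.09) in the lowest bin and −7.04 points (−8.36 to −5.69) in the highest. FOXA1nhaa peaks outside FOXA1 peaks and not in the FOXA1rraa list held a core in 10.7% over all bins (10.4 to 11.0), compared with 11.6% over nhaa-only sites (11.2 to 12.1). By bin they held one in 10.3%, 10.5%, 10.9%, 10.9% and 11.6%. The nhaa-only value was thus above theirs in the lowest 4 bins, with intervals that did not overlap in the lowest pair, and below it in the highest, where the intervals overlapped (9.54 to 11.5 and 10.8 to 12.5). FOXA1nhaa peaks outside FOXA1 peaks that are in the FOXA1rraa list, 2663 in number, held a core in 20.1% (18.6 to 21.6).

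**Figure D3:**
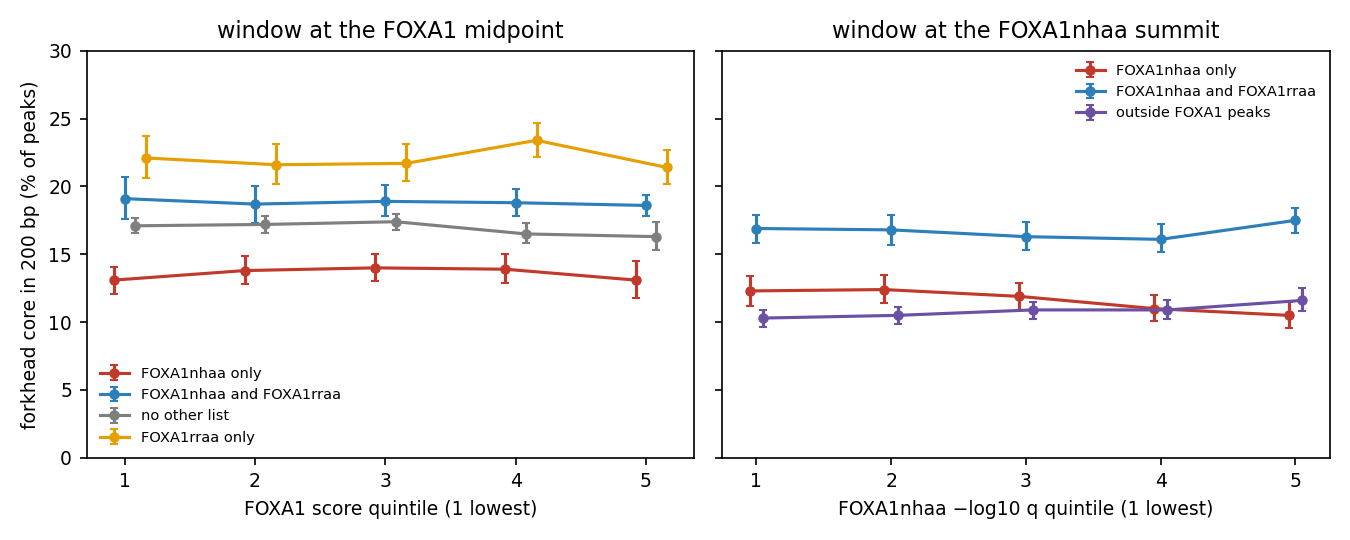
Share of peaks with a forkhead core in 200 bp by bin of FOXA1 score (left, window at the FOXA1 midpoint) and of FOXA1nhaa −log10 q (right, window at the FOXA1nhaa summit), with 95% Wilson intervals. Nhaa-only sites stay between 13.1% and 14.0% on the left, below sites shared with FOXA1rraa (18.6% to 19.1%). On the right, the group outside FOXA1 peaks leaves out FOXA1nhaa peaks that are in the FOXA1rraa list.

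The core also showed little preference for the FOXA1nhaa summit at nhaa-only sites. Bins of 20 bp were taken out to 200 bp on either side, and a core was placed by its middle letter. The share of sites with a core in the bin ranged only from 1.12% to 1.39%. At sites shared with FOXA1rraa it rose from 1.40% and 1.41% in the outermost bins to 2.12% in both bins at the summit. Around the FOXA1 midpoint, nhaa-only sites did show a rise, from 1.06% and 1.03% in the outermost bins to 1.76% and 1.69% at the centre. The reversed core gave 1.60% to 2.24% around the FOXA1nhaa summit at nhaa-only sites, without a peak at the summit.

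**Figure D4:**
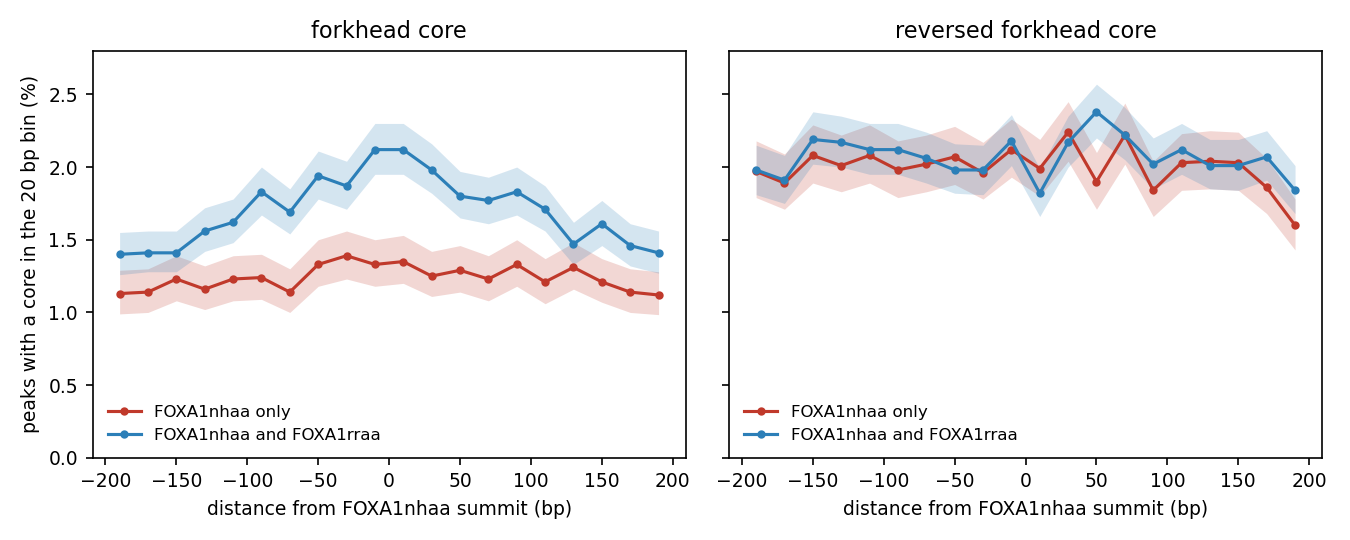
Share of sites with a forkhead core (left) or its reversed letters (right), placed by the middle letter, in each 20 bp bin of distance from the FOXA1nhaa summit. Shading shows 95% Wilson intervals. Nhaa-only sites stay within 1.12% to 1.39% for the core, and sites shared with FOXA1rraa reach 2.12% at the summit.

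Sites of other DNA-binding proteins were searched in the same windows. The AP-1 site TGACTCA, bound by FOS and JUN dimers that are abundant in fibroblasts, stood in 6.59% of nhaa-only sites (6.26 to 6.95), compared with 3.13% of flanking windows and 7.99% of all FOXA1 peaks. The share did not separate nhaa-only sites from sites shared with FOXA1rraa, with 6.62% and a difference of −0.03 points (−0.49 to 0.44). It was far below that of sites of FOXA1nhaa and FOXA1dbd, with 17.0% (−10.44 points, −11.86 to −9.09), and of sites of all 3 variants, with 15.3% (−8.67 points, −9.41 to −7.95). Sites of FOXA1dbd alone and of FOXA1rraa and FOXA1dbd had 14.1% each. Sites of FOXA1rraa alone had 6.63% and sites in no other list 6.01%. The lower share was thus common to the classes that FOXA1dbd did not overlap. An AP-1 site and a forkhead core stood together in 172 nhaa-only sites (0.879%).

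The TEAD site GGAATGT, bound by the partners of YAP, was found in 4.60% of nhaa-only sites and 4.82% of all FOXA1 peaks. Its share was lower than at sites shared with FOXA1rraa (5.35%, difference −0.75 points, −1.15 to −0.34) and slightly higher than at sites in no other list (4.26%, 0.34 points, 0.01 to 0.68). The RUNX site TGTGGTT was found in 4.88% of nhaa-only sites and 5.14% of all FOXA1 peaks. The HNF4 core CAAAGTCCA was found in 0.240% of nhaa-only sites and 0.261% of all FOXA1 peaks. The ETS core CCGGAAG (0.117% and 0.118%) and the GC box GGGCGGG (0.0919% and 0.115%), both common at CpG-rich promoters, were rare. Neither a forkhead core of any of the 4 spellings nor an AP-1 site was found in 13812 nhaa-only sites, or 70.6%, compared with 64.2% of sites shared with FOXA1rraa.

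Every word of 7 letters was then counted on both strands, a search added after the data were seen. Among words found in at least 1% of windows of both classes, those least frequent at nhaa-only sites relative to the sites shared with FOXA1rraa were led by words of alternating T and G, alone or followed by TA. The forkhead core TGTTTAC was the 12th lowest and TATTTAC the 19th lowest of 4718 words. GTGTGTA stood in 4.35% of nhaa-only sites and 7.83% of the shared sites, and TGTGTAT in 8.72% and 14.4%. TGTGTGT stood in 7.34% and 12.3%. TGTGTAT stood in 18.4% of sites of FOXA1rraa alone and 17.9% of sites of FOXA1dbd alone, and in 25.2% of sites of FOXA1rraa and FOXA1dbd. It stood in only 8.72% of sites of FOXA1nhaa and FOXA1dbd. In all 3 words the nhaa-only value lay below that of sites in no other list, where GTGTGTA stood in 6.39%.

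Among the words most frequent at the centre of nhaa-only sites relative to their flanks was AGCATGT, or ACATGCT on the other strand. It stood in 6.12% of nhaa-only sites (5.79 to 6.46), 5.46% of the shared sites (5.19 to 5.74), 4.23% of sites in no other list and 4.05% of sites of FOXA1rraa alone. Sites of FOXA1nhaa and FOXA1dbd held it in 6.82% and sites of all 3 variants in 5.97%, so the 4 classes that FOXA1nhaa overlapped had the highest values. All FOXA1 peaks held it in 4.87%. TTAGTCA, or TGACTAA on the other strand, which shares the letters TGACT with the AP-1 site, stood in 5.73% of nhaa-only sites and 5.83% of the shared sites.

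Nhaa-only sites lay mostly in introns. Of their centres, 9.43% (1847 sites, 9.03 to 9.85) were at most 1000 bp from an annotated start of transcription, compared with 8.87% of all FOXA1 peaks. Without the sites that had an excluded peak within 500 bp the share was 8.77% (8.36 to 9.20). This interval includes the 8.87% of all FOXA1 peaks, to which that filter was not applied. A further 5.67% lay in exons, 66.0% in introns and 18.8% between genes, and 135 lay in coding sequence. Sites in no other list lay near a start in 8.21% (1.23 points lower than nhaa-only sites, interval 0.77 to 1.70) and between genes in 23.2% (difference of nhaa-only sites −4.33 points, −4.96 to −3.69). The share near a start did not separate nhaa-only sites from sites shared with FOXA1rraa, with 9.47% (−0.04 points, −0.58 to 0.51). Relative to those, nhaa-only sites lay less often in exons (−1.09 points, −1.54 to −0.64) and more often between genes (1.83 points, 1.12 to 2.55). In each of the 4 places the forkhead share was lower at nhaa-only sites than at the shared sites. The difference was −6.55 points near starts (12.7% and 19.2%), −7.45 in exons, −4.42 in introns and −6.22 between genes.

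Nhaa-only sites were a like share of the FOXA1 peaks of most autosomes, with lower shares on chromosomes 19 and X. They made up between 8.41% (chromosome 19) and 13.6% (chromosome 11) of the FOXA1 peaks of an autosome, with a median of 12.6%. On chromosome X they made up 6.44% (143 of 2222, 5.49 to 7.53). FOXA1nhaa peaks overlapped only 15.6% of the FOXA1 peaks there, whose median FOXA1 score was 90.0. The forkhead share was lower at nhaa-only sites than at the shared sites on 20 of 22 autosomes, with chromosomes 19 and 20 as the exceptions. The FOXA1 peak nearest to a nhaa-only site was itself nhaa-only in 17.7% of cases, compared with 11.8% for sites shared with FOXA1rraa and 12.1% for sites in no other list. Without neighbours that shared a peak name or a FOXA1nhaa peak with the site, the values were 13.5% (13.1 to 14.0), 13% (12.6 to 13.4) and 12.3% (12 to 12.5).

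**Figure D5:**
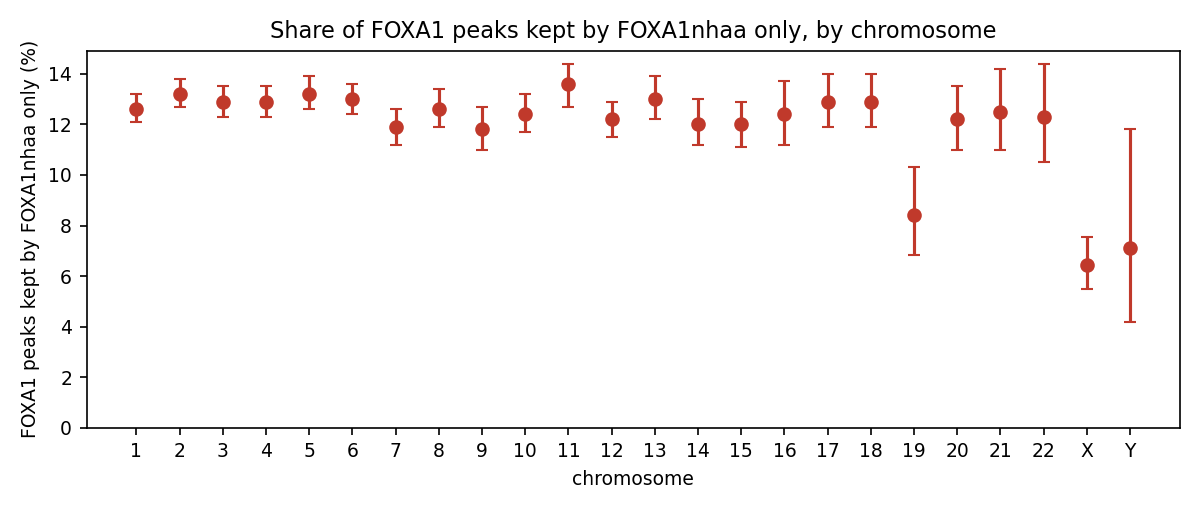
Share of the FOXA1 peaks of each chromosome that were nhaa-only sites, with 95% Wilson intervals. Autosomes lie between 8.41% and 13.6%, chromosome 19 is the lowest of them, and chromosome X is at 6.44%.

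The densest windows of 1 Mb held 49 nhaa-only sites of 299 FOXA1 peaks at chr1:72000001-73000000 and 45 of 225 (20%) at chr2:189000001-190000000. The first holds much of NEGR1, a neuronal adhesion gene, whose body of 887 kb contained the most nhaa-only sites of any protein-coding gene, 51 of 316 FOXA1 peaks (16.1%). DPYD, which encodes the enzyme that starts pyrimidine breakdown, held 36 of 215. RBMS3, which encodes an RNA-binding protein, held 35 of 213, and ENSG00000283563, which overlaps it, held 30 of 172. PTPRK, a receptor tyrosine phosphatase gene, held 30 of 150 (20%), and IMMP2L, which encodes a mitochondrial protease subunit, 29 of 117 (24.8%). VPS13B (29 of 186), MAGI2 (28 of 179), NBEA (28 of 138) and PRKG1 (28 of 189) complete the first 10, and all of these are long genes. The genes were chosen by their number of nhaa-only sites, which also favours high shares. Of 20098 protein-coding genes, 5216 held a nhaa-only site and 179 held at least 10. The number of genes holding any FOXA1 peak is not given here, so these counts do not set nhaa-only sites apart from other FOXA1 peaks.

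At 24 genes of the fibroblast matrix and surface, with 10 kb to either side, 62 of 363 FOXA1 peaks (17.1%, 13.6 to 21.3) were nhaa-only, and 12 of the genes had at least 1. Without the neighbours COL5A2 and COL3A1 the share was 12.9% (32 of 248, 9.29 to 17.6), close to the 12.6% of all FOXA1 peaks. COL5A2, a chain of type V collagen, had 21 of 83, and COL3A1, the type III collagen chain, 9 of 32. COL3A1 lies inside the dense window on chromosome 2, and COL5A2 lies across the end of that window. FN1, which encodes fibronectin, had 5 of 20, COL1A2 had 5 of 17, and LOX, the enzyme that cross-links collagen, had 4 of 12. FBN1, which encodes fibrillin, had 6 of 61, and ITGB1, the beta-1 integrin chain, 3 of 44. LUM had 0 of 10, TNC 0 of 8 and COL5A1 0 of 7. At 27 liver genes that FOXA factors are known to regulate, 5 of 69 peaks (7.25%, 3.13 to 15.9) were nhaa-only, 4 of them at CPS1 of the urea cycle and 1 at AFP, with 0 of 7 at ALB. At 21 genes of AP-1 and fibroblast transcription factors the share was 10.6% (38 of 359, 7.81 to 14.2), with 9 of 110 at RUNX1, 6 of 45 at RUNX2 and 5 of 36 at ZEB2. Each list's interval is to be read beside the 12.6% of all FOXA1 peaks, and neighbouring peaks of a gene are not independent.

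The strongest nhaa-only sites by FOXA1 score ranged widely in FOXA1nhaa strength. Their FOXA1nhaa peaks had percentiles of 93.3, 35.2, 89.1, 15.6 and 32.2 in the FOXA1nhaa list. The highest, chr6:80788876-80789411 in an intron of ENSG00000288071, had a FOXA1 score of 713, and its FOXA1nhaa peak a fold enrichment of 9.04 and a −log10 q of 20.4. The next, chr1:145206791-145207278, had a score of 702 but a fold enrichment of 3.97 and a −log10 q of 7.49. It lies 2069 bp from the start of NOTCH2NLA, a member of a family of near-identical human gene copies, so the assignment of reads to it is uncertain. A pair of peaks in an untranslated exon of SRP9, which encodes a subunit of the signal recognition particle, chr1:225977404-225977791 and chr1:225977976-225978156, had 683 each and share a peak name. A peak in a coding exon of SCYL2, chr12:100705833-100706627, had 672, and its FOXA1nhaa summit lay 348 bp from its midpoint. Of these 5 only the second SRP9 peak held a forkhead core.

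The strongest by FOXA1nhaa lay at the ZEB2 locus. This site, chr2:145252869-145253347, in an exon of ENSG00000279166 inside ZEB2, a gene of a zinc-finger repressor of epithelial genes, had a FOXA1nhaa fold enrichment of 21.5, a −log10 q of 65 and a FOXA1 score of 307. A forkhead core lay 43 bp from its summit, and the nearest FOXA1rraa peak was 535 bp away. The next, chr20:22999428-22999610, had a fold enrichment of 19.1 and a FOXA1 score of only 59.0. The triplet repeat printed above is at the summit of its FOXA1nhaa peak, outside the FOXA1 peak. The site printed first above, chr1:16943254-16943625, had a FOXA1 score of 354, a fold enrichment of 9.31 and a −log10 q of 53.5. The MAP3K5 site, chr6:136895374-136895664, in the gene of a stress-activated kinase, had 178, 16.7 and 52.7 for the same quantities. The site between genes at chr12:93845333-93845629 had 144, 16.2 and 51.8. Of these 5 sites, those at ZEB2 and near ENSG00000271732 held a forkhead core and the other 3 did not.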

How the data were processed

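Peak lists of 5 proteins were used, 1 per protein, as deposited by the authors in hg19. The submitters' processing notes name Bowtie2 2.3.4.1, Picard, GATK 4.2.6.0, bedtools 2.27.1, MACS2 2.2.7.1 and deepTools 3.5.0 without roles. Pooling of libraries and how inputs were used are not given in the sources used here. The deposited FOXA1 list holds a score per peak and no summit. The other deposited lists hold a score, fold enrichment, −log10 p- and q-values and a summit offset. All are the authors' values for single peaks, used only to describe and rank peaks within a list. No read counts are given, so depth is unknown. A second, down-sampled FOXA1 list and the HALO-tagged H2B samples were not used here.

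Overlap was at least 1 bp. Repeated FOXA1dbd rows were counted once. Motifs were searched without mismatch on both strands in the 200 bp around the FOXA1 midpoint, in GRCh37, with GENCODE 44 lifted to it for genes. A centre was assigned to a start within 1000 bp, then to an exon, an intron or the space between genes. Shares have 95% Wilson and differences 95% Newcombe intervals. The sites and gene lists were chosen with earlier results of these data known. Base-composition bins, bins of FOXA1nhaa −log10 q, the class of FOXA1rraa and FOXA1dbd, neighbouring sites and words of 7 letters were added after the data were seen. Named sites are the 5 with the highest FOXA1 score and the 5 with the highest FOXA1nhaa −log10 q, leaving out peaks whose name stands on a row that an excluded list overlaps (449 sites share such a name). Named genes are the 10 protein-coding genes with the most sites. Printed sequences are the 5 and 3 highest by −log10 q, outside chromosome 8 and annotated untranslated regions. The code (Python 3.11.15, pandas 2.3.3, scipy 1.17.1, pysam 0.24.0) was tested on simulated data. Alternatives changed the overlap rule, the peaks, the window and the core searched.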

Additional observations from a re-analysis of the deposited data

How the results depend on the processing

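Of 60 alternatives over 9 results, 43 left the value within its limits, 16 moved it and 1 reversed it. The forkhead differences kept their direction in every alternative with the forkhead core itself. Keeping FOXA1 peaks at or above the median score gave 8851 sites with a median score of 176 and an AP-1 share of 6.03%, and keeping FOXA1nhaa peaks at or above their median −log10 q gave 10183 sites, 116 and 5.98%. The counts fall because fewer peaks enter. A central window of 100 bp, which holds fewer words, gave a forkhead share of 7.51%, differences of −2.54 points from sites shared with FOXA1rraa and −2.05 from sites in no other list, and an AP-1 share of 3.55%. Around the FOXA1nhaa summit the forkhead share was 11.6%. With the reversed core the differences were 0.11 and −0.82 points. The share near a start was 8.77% without sites that had an excluded peak within 500 bp, and 20.8% within 2500 bp. Leaving out neighbours of the same peak and leaving out COL5A2 and COL3A1, both chosen after the data were seen, moved the shares of 17.7% and 17.1% to 13.5% and 12.9%. No paired analysis was possible because each protein has 1 list and no result comes from a test.

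With 1 list per protein, biological and technical variation were not measured. The part of read depth in the overlaps was not tested. Of the nhaa-only sites, 1622 carry a peak name found on several rows, and 258 are narrower than 50 bp.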

Other observations

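The CpG content of nhaa-only sites lay within the range of the other classes. Their central 200 bp held a mean of 0.808 CpG, and 46.7% held none, compared with 0.836 and 47.2% for all FOXA1 peaks. Sites shared with FOXA1rraa held a mean of 0.776 CpG and sites of FOXA1rraa alone 0.791, with none in 48.4% and 48.5%. Sites overlapped by FOXA1dbd had higher values, with 0.95 for FOXA1nhaa and FOXA1dbd and 0.965 for FOXA1dbd alone.

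The median distance to the midpoint of the next FOXA1 peak was 2541 bp, and 69.8% had one within 5 kb, compared with 71.8% of sites shared with FOXA1rraa (median 2352 bp) and 64.7% of sites in no other list. On chromosome 15 the forkhead share of nhaa-only sites was 9.45%, compared with 20.6% of sites shared with FOXA1rraa, the widest gap of the 22 autosomes. On chromosome Y, 13 of 183 FOXA1 peaks were nhaa-only and 0 of them held a forkhead core, a number too small to compare.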
